A study of Mus musculus with 6 samples.

Results

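The enzymes described here make serine and pass its carbon to folate: Phgdh, Psat1, Psph, Shmt1, Shmt2, Mthfd1, Mthfd1l and Mthfd2. They were taken by gene symbol from a table of 22001 genes measured in neocortical cells of mouse embryos. All 8 were found and all 8 were among the 13560 genes with enough counts to be tested. The set was selected on gene names with the counts of these libraries, and the fold changes between the Insm1 and control groups, already known, so its values in that comparison are a description and support nothing else.

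The 3 Insm1 libraries came from cells electroporated in utero at E13.5 with a plasmid encoding Insm1 together with mCherry. The 3 control libraries came from cells given a plasmid encoding mCherry alone. In both groups the neocortex was dissected 24 h later, at E14.5, and cells positive for mCherry, a red fluorescent protein, were sorted. The Insm1 protein is a zinc-finger repressor of transcription found in newborn neurons and basal progenitors. In utero electroporation is used to reach the progenitors that line the ventricle. The sources used here do not give the promoter of the plasmids or the number of embryos or litters behind a library. The p-values therefore rest on the variation among 6 libraries that may share embryos, litters or handling.

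Serine is made in the cytosol from the glycolytic intermediate 3-phosphoglycerate. Phgdh oxidises it, Psat1 adds the amino group and Psph removes the phosphate. Serine hydroxymethyltransferases then split serine into glycine and a carbon unit carried by tetrahydrofolate, Shmt1 in the cytosol and Shmt2 in mitochondria. Mthfd enzymes interconvert the oxidation states of that unit, which is used for purines, thymidylate and methionine. In the brain, serine synthesis is known as a feature of radial glia and astrocytes, and Phgdh is widely used to mark them.

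Library totals lay between 30017645 and 31645135 counts. Counts are given as CPM, the count relative to the library size, after TMM scaling, and ± is the SD over 3 libraries. Insm1 was at 1569.6, 2173 and 1436 CPM in Insm1 libraries 1, 2 and 3, against 222, 331 and 371 CPM in controls 1, 2 and 3. Plasmid and chromosomal Insm1 transcripts are counted together. Cortical progenitor and projection neuron markers were present in every library, whereas markers of choroid plexus, meningeal and endothelial cells summed to at most 3.37 CPM in any library. Globin and other blood genes summed to 5054, 5149.6 and 3797.5 CPM in Insm1 libraries 1, 2 and 3, against 754, 5495 and 325 CPM in controls 1, 2 and 3. Cajal-Retzius markers summed to 46.7, 36.8 and 31.0 CPM in the Insm1 libraries, against 127, 30.5 and 119.7 CPM in the controls, so control 2 stood apart from controls 1 and 3 in both lists. Microglia markers summed to 6.69, 24.9 and 9.24 CPM in the Insm1 libraries, against 0.745, 47.7 and 5.52 CPM in the controls, with control 2 again apart.

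The stretches of DNA just before the start sites of 4 of the genes are printed. They set the pair of enzymes with the largest falls, Phgdh and Psat1, beside the pair with positive fold changes, Shmt2 and Mthfd2. The groups overlapped for both Shmt2 and Mthfd2, and neither passed the test described below. The stretches are RefSeq sequences of build GRCm38.p6, 5′ to 3′ on the gene's own strand. They run from 250 bases before the start site, without bases annotated as exons in GENCODE M21. Capitals mark CCAAT boxes, on either strand.
Phgdh (chr3:98339991-98340219, minus strand): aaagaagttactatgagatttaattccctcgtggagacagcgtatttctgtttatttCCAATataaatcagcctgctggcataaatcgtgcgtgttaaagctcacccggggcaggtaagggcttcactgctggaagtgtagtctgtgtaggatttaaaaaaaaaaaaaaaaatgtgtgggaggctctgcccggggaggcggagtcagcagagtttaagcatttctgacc
Psat1 (chr19:15925060-15925309, minus strand): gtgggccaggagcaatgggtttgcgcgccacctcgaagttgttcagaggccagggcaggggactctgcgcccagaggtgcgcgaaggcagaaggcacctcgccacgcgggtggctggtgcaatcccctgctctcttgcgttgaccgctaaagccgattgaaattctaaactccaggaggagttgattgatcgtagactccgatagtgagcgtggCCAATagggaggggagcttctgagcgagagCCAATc
Shmt2 (chr10:127522445-127522694, minus strand): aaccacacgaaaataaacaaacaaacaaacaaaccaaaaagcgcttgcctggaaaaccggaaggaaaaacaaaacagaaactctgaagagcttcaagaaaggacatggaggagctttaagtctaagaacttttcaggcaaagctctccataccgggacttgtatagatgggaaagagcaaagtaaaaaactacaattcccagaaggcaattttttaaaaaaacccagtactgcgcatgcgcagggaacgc
Mthfd2 (chr6:83317607-83317854, minus strand): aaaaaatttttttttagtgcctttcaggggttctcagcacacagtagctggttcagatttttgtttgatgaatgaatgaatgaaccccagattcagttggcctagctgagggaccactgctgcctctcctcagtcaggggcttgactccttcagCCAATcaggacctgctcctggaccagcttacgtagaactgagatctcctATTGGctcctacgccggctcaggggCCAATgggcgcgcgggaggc
All 8 genes had an entry, with 9 start sites in all because Psat1 has a pair of them, of which the upstream one is printed. The 250 bases before each start site were searched on both strands for 5 motifs. None of the 9 windows held TGATGNAA, the core of the composite site bound by ATF4 and C/EBP factors, which was in 3.45% of all 32817 such windows. None held CACGTG, the E-box bound by Myc and other factors, which was in 6.02% of all windows. None held TG followed by 3 bases of any kind and GGGGG, a simplified form of the sequence reported for Insm1, which was in 7.37%. CCAAT was in 6 of the 9 windows and in 33.8% of all windows, and GGGCGG, the GC box, in 5 of the 9 and in 32.7%. Bases of annotated exons were kept in this search. The windows of Psph and Mthfd1 lie wholly in annotated exons, and each held both of these motifs. No motif contains another. In the printed stretches, CCAAT occurs once before Phgdh, at -193 from the start site, at -36 and -6 before Psat1, at -96, -47 and -22 before Mthfd2, and not before Shmt2. A further CCAAT of Phgdh, at -23, reaches into its annotated exon and is not in the printed stretch. These matches are a description of letters in these windows.

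The enzymes of serine synthesis were all lower with Insm1. Psat1, the phosphoserine aminotransferase, was at 88.1, 84.5 and 62.3 CPM in Insm1 libraries 1, 2 and 3, against 172, 145 and 149.7 CPM in controls 1, 2 and 3. Every Insm1 library lay below every control, and the highest Insm1 value was well short of the lowest control value. The mean was 78.3 ± 14.0 CPM with Insm1 and 156 ± 14.4 CPM in the controls (SD, n = 3 each), a 1.99-fold fall with a log2 fold change of -0.99 and a standard error of 0.13. This placed Psat1 at the 4.13 percentile of log2 fold changes over all tested genes.

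Phgdh, the dehydrogenase that opens the pathway, was at 89.1, 82.3 and 65.2 CPM in Insm1 libraries 1, 2 and 3, against 138, 126 and 110.2 CPM in controls 1, 2 and 3. The groups did not overlap, and as for Psat1, Insm1 library 3 was the lowest of the 6 and control 1 the highest. Phgdh fell 1.58-fold, with a log2 fold change of -0.66 and a standard error of 0.12. Psph, the phosphatase of the last step, was at 25.4, 26.7 and 23.9 CPM in the Insm1 libraries, against 36.1, 34.5 and 30.6 CPM in the controls. Its groups did not overlap either, the difference was smaller (log2 fold change -0.41, standard error 0.11), and Psph did not pass the test. Exons of Psph share 452 bases with a transcript of Cct6a on the other strand, and these libraries mark no strand, so some Psph reads could belong to Cct6a.

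The summed level of the 3 serine synthesis genes was 203, 194 and 151 CPM in Insm1 libraries 1, 2 and 3, against 346, 306 and 290.5 CPM in controls 1, 2 and 3. The Insm1 mean was 0.581 of the control mean. The difference was larger for Psat1 than for Phgdh. Per kilobase of exon, the ratio of Psat1 to Phgdh was 0.578, 0.600 and 0.558 in the Insm1 libraries, against 0.729, 0.671 and 0.794 in the controls. The ratio did not overlap between the groups.

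**Figure D1:**
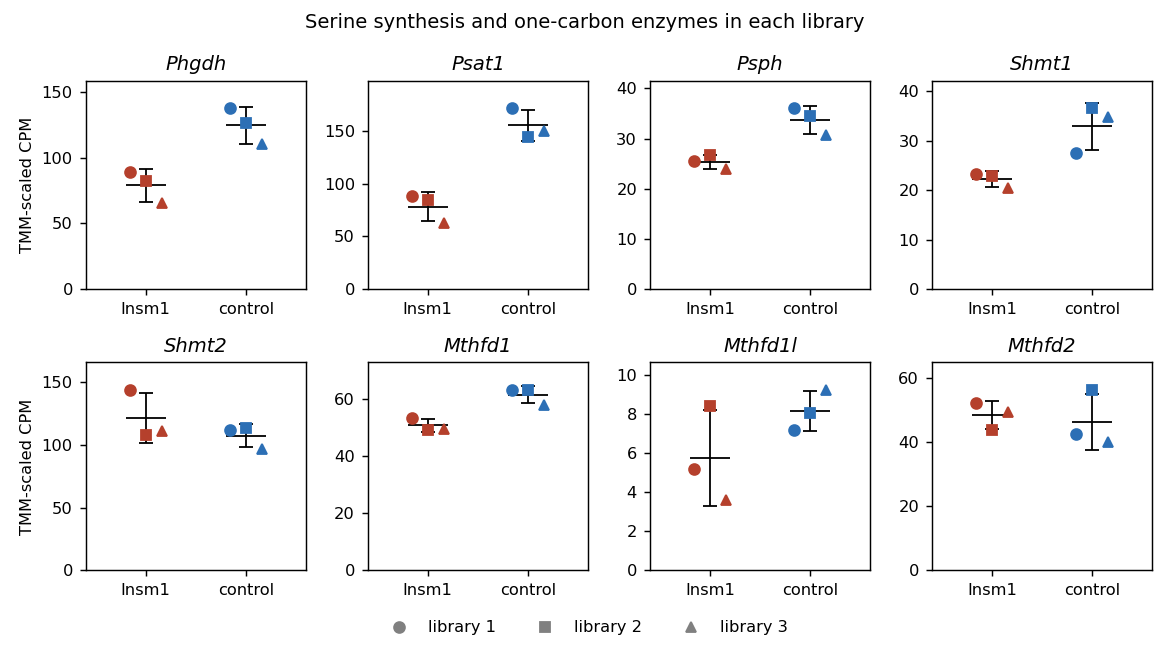
TMM-scaled CPM (y axis, from 0, a separate scale for each gene) of the 8 enzymes in the 3 Insm1 and 3 control libraries. Symbols are libraries 1 to 3 of each group, which were not treated as paired, and the bar and whiskers are the mean and SD. The groups are apart for Phgdh, Psat1, Psph, Shmt1 and Mthfd1, and overlap for Shmt2, Mthfd1l and Mthfd2.

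Of the serine hydroxymethyltransferases, the cytosolic one passed the test and the mitochondrial one did not. Shmt1, the cytosolic enzyme, was at 23.4, 22.9 and 20.5 CPM in Insm1 libraries 1, 2 and 3, against 27.6, 36.6 and 34.8 CPM in controls 1, 2 and 3. The groups did not overlap, with control 1 the nearest to the Insm1 libraries, and Shmt1 fell 1.48-fold with a log2 fold change of -0.57 and a standard error of 0.13. Exons of Shmt1 share 184 bases with Smcr8 on the other strand.

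Shmt2, the mitochondrial enzyme, was at 144, 108 and 111 CPM in Insm1 libraries 1, 2 and 3, against 112, 114 and 97.0 CPM in controls 1, 2 and 3. The groups overlapped, and the positive log2 fold change of 0.17, with a standard error of 0.11, came with 1 high value in Insm1 library 1. Without that library the log2 fold change of Shmt2 was 0.03. Per kilobase of exon, Shmt2 was above Shmt1 by a ratio of 7.70, 5.89 and 6.78 in the Insm1 libraries, against 5.05, 3.88 and 3.49 in the controls. This ratio did not overlap between the groups.

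Of the Mthfd enzymes, the cytosolic one was lower and those of mitochondria overlapped. Mthfd1, a trifunctional cytosolic enzyme, was at 53.5, 49.0 and 49.6 CPM in Insm1 libraries 1, 2 and 3, against 63.0, 63.2 and 58.0 CPM in controls 1, 2 and 3. All Insm1 libraries lay below all controls, by a small margin that did not pass the test (log2 fold change -0.28, standard error 0.085). Mthfd2, the mitochondrial dehydrogenase and cyclohydrolase that is abundant in embryonic and dividing cells, was at 52.5, 43.9 and 49.4 CPM in the Insm1 libraries, against 42.5, 56.5 and 40.0 CPM in the controls. Control 2 was the highest of the 6. Mthfd2 had a log2 fold change of 0.07 (standard error 0.14), which became 0.24 without control 2 and -0.02 without control 3.

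Mthfd1l, the mitochondrial enzyme that releases formate, was the least abundant, at 5.20, 8.43 and 3.62 CPM in Insm1 libraries 1, 2 and 3, against 7.19, 8.05 and 9.27 CPM in controls 1, 2 and 3. These rest on 161, 260 and 112 counts in the Insm1 libraries and 222, 248 and 284 counts in the controls. The Insm1 libraries of Mthfd1l spread more than the controls and overlapped them (log2 fold change -0.51, standard error 0.29), and the value moved to -0.26 without Insm1 library 3 and to -0.89 without Insm1 library 2. The 3 mitochondrial enzymes together summed to 202, 160.4 and 164 CPM in the Insm1 libraries, against 161, 178 and 146 CPM in the controls. The groups overlapped, whereas Shmt1 and Mthfd1 together were at 76.8, 72.0 and 70.1 CPM in the Insm1 libraries, against 90.6, 99.9 and 92.8 CPM in the controls, with no overlap.

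**Figure D2:**
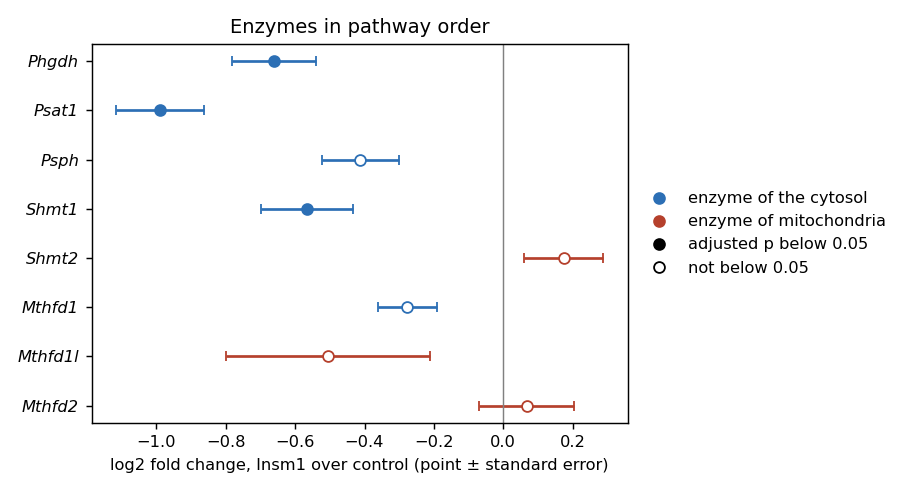
Log2 fold change of Insm1 over control (x axis) with its standard error for each enzyme in pathway order, enzymes of the cytosol in blue and of mitochondria in red. Filled points passed an adjusted p of 0.05 over all genes. The 5 cytosolic enzymes lie between -0.99 and -0.28, and of the mitochondrial ones Shmt2 and Mthfd2 lie above 0 and Mthfd1l below it with the widest error.

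By edgeR's quasi-likelihood test over all 13560 genes, 3 of the 8 enzymes were called lower at a Benjamini-Hochberg adjusted p below 0.05, where 3.35% of all tested genes were called in either direction and 2.12% were called lower. These were Psat1 (adjusted p = 0.0056), Phgdh (0.0184) and Shmt1 (0.0484). Psph (0.0787), Mthfd1 (0.120), Mthfd1l (0.443), Shmt2 (0.507) and Mthfd2 (0.869) were not called. By the same test none of the 8 was called higher, and at an unadjusted p below 0.05 the counts were 0 higher and 5 lower, where 17.2% of all tested genes passed, 9.69% lower and 7.56% higher. DESeq2 called 0 higher and 4 lower, the 3 and Psph, where it called 7.96% of the genes to which it gave an adjusted p, 4.64% lower and 3.32% higher. The groups did not overlap in 5 of the 8, all lower with Insm1, where 22.2% of all tested genes did not overlap, 11.8% lower and 10.4% higher. The median log2 fold change was -0.46 over the 8 and -0.0086 over all tested genes. Since the enzymes were chosen with this comparison known, these shares are set side by side and nothing is read from them.

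With single libraries left out, Psat1 was called in all 6 fits, with log2 fold changes between -1.08 and -0.85. Phgdh was called in 3 of the 6 and lost the call without control 1 (adjusted p = 0.0702), Insm1 library 2 (0.0583) or Insm1 library 3 (0.0505). Shmt1 kept the call without control 1 (0.0420), and lost it without control 2 (0.0956), control 3 (0.194), Insm1 library 1 (0.0837), Insm1 library 2 (0.116) or Insm1 library 3 (0.165). Under 10 other settings Psat1 was called in 10, Phgdh in 8 and Shmt1 in 5. Shmt1 lost its call with limma-voom (0.0684), with a fit that is not robust (0.0526), with the replicate block and with limma on either scale of TPM.

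Levels of the 8 enzymes relative to each other were compared per kilobase of merged exons, in CPM per kilobase. In the Insm1 libraries the order was Shmt2 at 39.0 ± 6.40, Phgdh at 31.7 ± 4.95, Psat1 at 18.4 ± 3.29 and Mthfd2 at 13.9 ± 1.25. Mthfd1 at 11.4 ± 0.543, Psph at 5.85 ± 0.326, Shmt1 at 5.74 ± 0.400 and Mthfd1l at 1.30 ± 0.552 followed (SD, n = 3). In the controls the order was Phgdh at 50.2 ± 5.58, Psat1 at 36.6 ± 3.38, Shmt2 at 34.5 ± 2.91 and Mthfd1 at 13.8 ± 0.661. Mthfd2 at 13.3 ± 2.54, Shmt1 at 8.49 ± 1.23, Psph at 7.79 ± 0.647 and Mthfd1l at 1.84 ± 0.236 followed (SD, n = 3). So Shmt2 was ranked 1 with Insm1 and 3 in the controls. Neighbours whose libraries overlapped in the Insm1 group were Shmt2 and Phgdh, Psat1 and Mthfd2, and Psph and Shmt1. In the controls they were Psat1 and Shmt2, Mthfd1 and Mthfd2, and Shmt1 and Psph.

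The ratio of Shmt2 to Phgdh per kilobase of exon was 1.29, 1.05 and 1.36 in Insm1 libraries 1, 2 and 3, against 0.647, 0.720 and 0.704 in controls 1, 2 and 3. Among the ratios formed but not printed, Mthfd2 to Mthfd1 and Phgdh to Psph did not overlap between the groups. Those of Mthfd2 to Mthfd1l and to its relative Mthfd2l overlapped. With the length of the principal transcript in place of merged exons, all ranks in the Insm1 libraries and the first 3 in the controls were the same. The other control ranks changed, except for Mthfd1l in the last place, to Mthfd2 at 22.2, Psph at 19.5, Mthfd1 at 19.0 and Shmt1 at 11.5 CPM per kilobase. The deposited TPM of the authors could not be used for this order, because the length behind it matches the whole gene with introns. Shmt2 spans 5322 bases and Phgdh 26821, so the deposited TPM put Shmt2 at 179.6 ± 11.4 and Phgdh at 41.4 ± 4.01 TPM in the controls (SD, n = 3), the opposite order to that per kilobase of exon.

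The wider pathway was described from 10 lists fixed by biochemical role, with 121 genes of which 111 could be tested. Of these 3 fell, 1 rose and 107 did not pass, so 3.60% were called against 3.35% of all tested genes. The groups did not overlap in 25 of the 111, 22.5%, against 22.2% of all tested genes. Of the 25, 19 were lower and 6 higher, where 11.8% of all tested genes did not overlap and were lower and 10.4% higher. At an unadjusted edgeR p below 0.05, 18 were lower and 7 higher, where 9.69% of all tested genes were lower and 7.56% higher. DESeq2 called 9 lower and 3 higher, where it called 4.64% of genes lower and 3.32% higher. The median log2 fold change was -0.04. Taken over both directions, the share called by edgeR and the share that did not overlap were close to those of the whole table. By direction they differed. The 19, 18 and 9 lower genes were larger shares of the 111 than those given for all tested genes. The 6, 7 and 3 higher genes were smaller shares.

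The 3 genes that fell were Sfxn1, Aldoc and Ldha. Sfxn1, which carries serine into mitochondria, was at 74.2, 75.3 and 79.8 CPM in Insm1 libraries 1, 2 and 3, against 104, 91.0 and 96.5 CPM in controls 1, 2 and 3. No Insm1 library reached the lowest control, and Sfxn1 fell 1.27-fold (edgeR adjusted p = 0.0436), a call that was lost without any library other than control 2, with adjusted p-values between 0.0952 and 0.174. It was the 1 called member of 11 tested serine and glycine transporters, whose median was -0.05. Over all tested genes, 2.12% were called lower. Slc1a4 and Slc1a5, which carry serine and other neutral amino acids across the cell membrane, had log2 fold changes of -0.37 and -0.43 and did not pass (adjusted p = 0.163 and 0.154 in the edgeR test).

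In glycolysis 2 of 15 tested genes fell, none rose and 13 did not pass, with a median of -0.10, where 2.12% of all tested genes were called lower. Aldoc, the aldolase of radial glia and astrocytes, was at 93.0, 108 and 68.5 CPM in the Insm1 libraries, against 179, 144 and 162 CPM in the controls. It fell 1.80-fold (edgeR adjusted p = 0.0207), but did not pass when Insm1 library 1 (0.0664), control 1 (0.0688) or control 3 (0.0789) was left out. Ldha, a subunit of lactate dehydrogenase, fell 1.31-fold (edgeR adjusted p = 0.0236), a call lost without any library other than control 2, with adjusted p-values between 0.0670 and 0.121. The enzymes on either side of 3-phosphoglycerate, Pgk1 and Pgam1, had log2 fold changes of -0.18 and -0.23 and did not pass (adjusted p = 0.175 and 0.0928 in the edgeR test), although their libraries did not overlap.

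Among 10 other folate enzymes tested 0 were called by edgeR or DESeq2, 2 had an unadjusted p below 0.05 and the median was -0.01. Over all tested genes, 17.2% had an unadjusted p below 0.05 in the edgeR test. Gart, of purine synthesis, had a log2 fold change of -0.19, and Tyms, the thymidylate synthase, -0.16. Mthfd2l, the mitochondrial relative of Mthfd2, was at 72.4, 72.9 and 70.7 CPM in Insm1 libraries 1, 2 and 3, against 74.2, 63.4 and 63.0 CPM in controls 1, 2 and 3. Like Mthfd2, it overlapped between the groups. Of 5 tested genes of folate uptake and retention 0 were called by either tool or had an unadjusted p below 0.05, with the folate carrier Slc19a1 at a log2 fold change of -0.08 and the hydrolase Ggh at -0.03.

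The glycine cleavage system, which breaks glycine down in mitochondria and feeds the same folate pool, had 0 of 3 tested members called by edgeR, 2 at an unadjusted p below 0.05 and 2 lower by DESeq2. Gldc, its decarboxylase, was at 79.2, 78.7 and 71.9 CPM in Insm1 libraries 1, 2 and 3, against 92.0, 95.0 and 90.4 CPM in controls 1, 2 and 3. The groups did not overlap, with a log2 fold change of -0.27 (edgeR adjusted p = 0.0871). Gcsh, its hydrogen carrier, had a log2 fold change of -0.30 (edgeR adjusted p = 0.113), and Dld, a subunit it shares with other dehydrogenases, -0.03. Over all tested genes, 17.2% had an unadjusted p below 0.05 in the edgeR test, and DESeq2 called 4.64% of genes lower.

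Users of the carbon units were mostly at negative values that did not pass. In purine synthesis and thymidylate supply 0 of 13 tested genes were called by edgeR. At an unadjusted edgeR p below 0.05, 5 were lower and 0 higher, and DESeq2 called 2 lower. Over all tested genes, 9.69% were lower at that unadjusted p, and DESeq2 called 4.64% of genes lower. Of the 13, 12 were negative and the median was -0.21, with Paics at -0.21, Gmps at -0.12 and Prps2, a synthetase of phosphoribosyl pyrophosphate, at -0.62 (edgeR adjusted p = 0.0639). In the methionine cycle and transsulfuration 0 of 14 were called by edgeR, 1 had an unadjusted p below 0.05 and DESeq2 called 1 lower, with a median of -0.10. Its most abundant members, Mat2a and Ahcyl1, had log2 fold changes of -0.01 and -0.09. Of 14 enzymes that use serine or glycine 0 were called by either tool and 0 had an unadjusted p below 0.05. The median there was 0.0027, and the glycyl and seryl tRNA ligases Gars and Sars had log2 fold changes of 0.06 and 0.11.

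**Figure D3:**
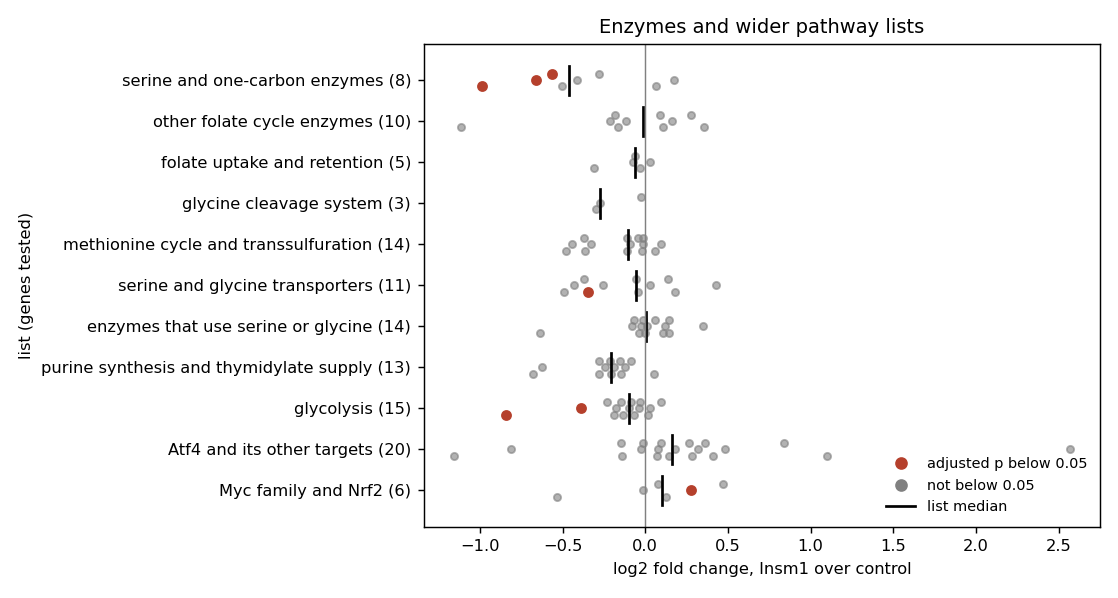
Log2 fold change of Insm1 over control (x axis) of each tested gene, by list, with the number of genes tested in brackets. Red points passed an adjusted p of 0.05 over all genes and black bars are list medians, from -0.46 for the 8 enzymes to 0.16 for Atf4 and its other targets.

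Atf4, a transcription factor that responds to amino acid shortage and is known to drive Phgdh, Psat1, Shmt2 and Mthfd2, was at 150.1, 188 and 178 CPM in Insm1 libraries 1, 2 and 3, against 131, 203 and 133 CPM in controls 1, 2 and 3. The groups overlapped, with control 2 the highest (log2 fold change 0.15, edgeR adjusted p = 0.765). Without control 2 the log2 fold change of Atf4 was 0.39 (edgeR adjusted p = 0.0602). With any other single library left out it was between 0.04 and 0.24. Of Atf4 and its 19 other tested targets, 0 were called by edgeR and 4 had an unadjusted p below 0.05, all higher. DESeq2 called 1 higher, Trib3. The median was 0.16. Over all tested genes, 7.56% were higher at that unadjusted p, and DESeq2 called 3.32% of genes higher. Asns, the asparagine synthetase, had a log2 fold change of 0.07, Chac1 0.84 and Aldh18a1 -0.01. Trib3 was at 0.937, 3.11 and 5.04 CPM with Insm1, against 0.874, 0.519 and 0.131 CPM in the controls (edgeR adjusted p = 0.0981). In the list of the Myc family and Nrf2, 1 of 6 tested members rose, where 1.23% of all tested genes were called higher. Mycl rose 1.21-fold (edgeR adjusted p = 0.0409), a call lost without any library other than control 2, with adjusted p-values between 0.0759 and 0.180. Myc had a log2 fold change of 0.47 and did not pass (adjusted p = 0.0530 in the edgeR test).

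Markers of some cell types in the sort also differed between the groups. In bulk RNA, fewer cells of a type and less RNA per cell cannot be told apart. The 12 apical progenitor markers, genes of radial glia, summed to 3397, 3149.6 and 2715 CPM in Insm1 libraries 1, 2 and 3, against 4584, 4372 and 4023 CPM in controls 1, 2 and 3. Of the 12, 7 fell, none rose and 5 did not pass, where 2.12% of all tested genes were called lower and 1.23% higher. Their median was -0.63, against which Phgdh was at -0.66, Psat1 at -0.99 and Shmt1 at -0.57. The other enzymes were nearer 0 or positive, with Mthfd1l at -0.51, Psph at -0.41, Mthfd1 at -0.28, Mthfd2 at 0.07 and Shmt2 at 0.17. Insm1 library 3 was the lowest of the 6 in this sum, as it was for Phgdh, Psat1, Psph and Shmt1. The 12 projection neuron markers summed to 8402, 8951 and 9167 CPM with Insm1, against 7618, 7324 and 7546 CPM in the controls. Of these 4 rose, none fell and 8 did not pass, read against the same shares of all tested genes. By sign 9 were positive and 3 negative. DESeq2 called 7 of them higher and 1 lower, where it called 3.32% of genes higher and 4.64% lower. Of 8 basal progenitor markers 3 rose, none fell and 5 did not pass, and they summed to between 2272 and 2458 CPM with Insm1, against 2005 to 2259 CPM in the controls. Of these 8, 4 had a positive and 4 a negative log2 fold change, with a median of 0.10, so the list did not rise as a whole. Interneuron markers summed to between 5.40 and 8.21 CPM with Insm1, against 8.31 to 16.1 CPM in the controls. S-phase genes summed to 2942, 2437 and 2556 CPM with Insm1, against 2825, 3419 and 3025 CPM in the controls. In that list 3 of 15 fell, 1 rose and 11 did not pass, and the sums overlapped. Of the 15, 14 had a negative log2 fold change, and the median was -0.29. DESeq2 called 6 of them lower and 1 higher, where it called 4.64% of genes lower and 3.32% higher. G2/M genes summed to 2783, 1889 and 2412 CPM with Insm1, against 2128, 2857 and 2347 CPM in the controls, with control 2 the highest, as it was for Mthfd2. The part of these cell types in the enzyme values was not tested.

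Over the 6 libraries, the mean of the 8 enzymes' log2 CPM, each centred on its own mean, was -0.10, -0.13 and -0.39 in Insm1 libraries 1, 2 and 3, against 0.20, 0.27 and 0.14 in controls 1, 2 and 3. Of 10307 other genes with a mean of at least 5 CPM, the 5 whose log2 CPM was most like this profile by Pearson's r over the 6 libraries were Nes, Gldc, Aif1l, Pawr and Sox21, with r between 0.988 and 0.994. Nes, itself 1 of the 12 apical progenitor markers above, encodes nestin, the intermediate filament of neural progenitors, Gldc belongs to the glycine cleavage system, and Sox21 is a transcription factor of neural progenitors. Nes was at 259, 233 and 188 CPM in the Insm1 libraries, against 347, 359.9 and 322 CPM in the controls. With 6 libraries in 2 groups and so many genes compared, a high r is a description of these libraries.

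**Figure D4:**
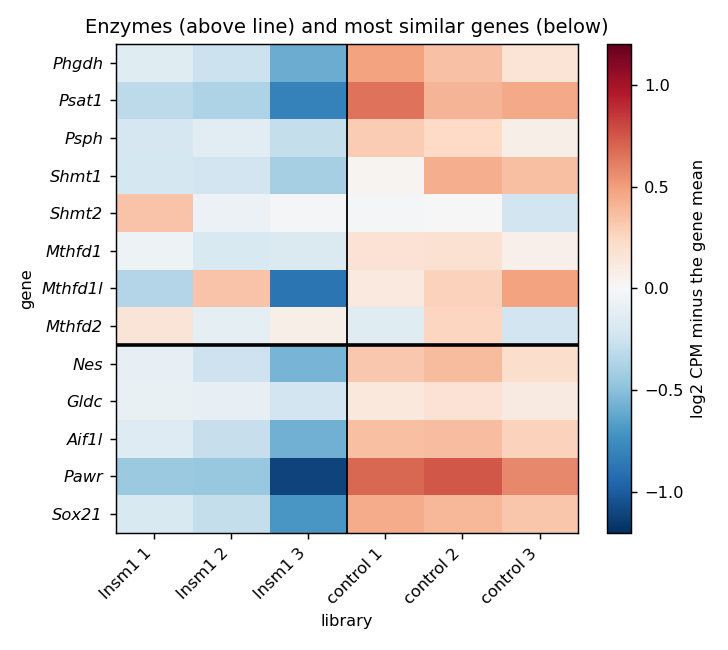
Log2 CPM minus the mean of each gene (colour) in the 3 Insm1 and 3 control libraries (x axis), for the 8 enzymes above the line and the 5 most similar genes below it. Insm1 library 3 is the lowest column for Phgdh, Psat1, Psph and Shmt1 and for the 5 similar genes, while Shmt2 and Mthfd2 do not follow the pattern.

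On GRCm38, in GENCODE M21, all 8 are protein-coding genes. Phgdh (ENSMUSG00000053398) lies on chromosome 3 from 98313170 to 98339990, Psat1 (ENSMUSG00000024640) on chromosome 19 from 15904678 to 15947337 and Psph (ENSMUSG00000029446) on chromosome 5 from 129765558 to 129787449. Shmt1 (ENSMUSG00000020534) lies on chromosome 11 from 60788104 to 60811718, and Shmt2 (ENSMUSG00000025403) on chromosome 10 from 127517123 to 127522444. Mthfd1 (ENSMUSG00000021048) lies on chromosome 12 from 76255298 to 76319803, Mthfd1l (ENSMUSG00000040675) on chromosome 10 from 3973118 to 4167081 and Mthfd2 (ENSMUSG00000005667) on chromosome 6 from 83305691 to 83325908. Mthfd1 and Mthfd1l are on the plus strand and the other 6 on the minus strand. The exons of Phgdh, Psat1, Mthfd1, Mthfd1l and Mthfd2 overlap those of no other gene in the count table, and those of Shmt2 share 32 bases with Ndufa4l2.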

How the data were processed

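The deposited count table holds the authors' whole-number counts per Ensembl gene for 6 libraries. Per the labels' protocols, cDNA was made by poly-dT priming and template switching, amplified for 12 cycles, and libraries amplified for 15 further cycles were sequenced as single 75-base reads, without molecular identifiers or strand. The tools named are TopHat2 2.0.13, Bowtie and bcl2fastq, and the build GRCm38, per the submitters' processing notes. For the counting program and the annotation: not given in the sources used here. In the deposited TPM table the length implied by the authors' TPM was within 10% of the GENCODE M21 gene span, introns included, for 97.8 to 97.9% of genes with at least 100 counts and 1 TPM, and within 10% of merged exon length for 8.46 to 8.67%, after centring on the median. Pairs of libraries of a group differed beyond counting noise (chi-square per degree of freedom 12.9 to 32.5), so no library was a copy of another in its group. Each counted as 1 sample, although this check cannot show that libraries came from different embryos or litters.

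Genes were filtered with filterByExpr, scaled by TMM and tested with edgeR 4.0.16 (R 4.3.3), by a robust quasi-likelihood fit on group alone, two-sided, with Benjamini-Hochberg adjustment over 13560 genes and calls below 0.05. The fit was checked on simulated counts. Standard errors come from its F statistic. Alternatives were other scalings and filters, DESeq2 1.42.0, limma 3.58.1 with voom or on log2(TPM + 1) and log2(TPM + 0.1), a fit that is not robust, the replicate number as a block and each library left out.

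The enzymes and lists were chosen with earlier results of these data known. Named genes are the 8 enzymes, up to 4 called genes of each wider list or else its 2 most abundant, and Insm1. Of cell marker lists, sums and counts are given. The 5 genes most like the enzymes were taken by Pearson's r. Named after their values were seen were Mthfd2l, Gcsh, Prps2, Slc1a4, Slc1a5, Pgk1, Pgam1, Myc, Asns, Chac1 and Trib3.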

Additional observations from a re-analysis of the deposited data

How the results depend on the processing

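The directions of Phgdh, Psat1, Psph, Shmt1, Mthfd1, Mthfd1l and Shmt2 were the same in all 16 alternative fits, and Mthfd2 ranged from -0.0215 to 0.238 with single libraries left out, turning negative without control 3. Among 13560 genes 454 were called, against 1016 by DESeq2, 60 by limma on log2(TPM + 1), 64 on log2(TPM + 0.1), and 101 to 631 with single libraries left out. Of the 8 enzymes 3 were called, against 2 by limma-voom, 2 with a fit that is not robust, 1 by limma on log2(TPM + 1) or log2(TPM + 0.1), and 1 to 2 with single libraries left out. Of the wider pathway genes 4 were called, against 12 by DESeq2, 2 by limma-voom, 0 by limma on log2(TPM + 1) or log2(TPM + 0.1) (25 had an unadjusted p below 0.05 in the edgeR test), and 0 to 6 with single libraries left out. The causes were not tested.

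Same-numbered libraries of the groups correlated at 0.07, 0.03 and -0.06 in their deviations from the group means. Libraries of unlike number correlated between -0.10 and 0.06. These values cannot settle whether same-numbered libraries share a litter or day, which the labels do not give. With the replicate block 331 genes, 2 of the enzymes (Phgdh and Psat1) and 1 wider pathway gene were called.

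Other log2 fold changes near 0 that changed sign with single libraries left out were Ggh (-0.144 to 0.0522), Dld (-0.0965 to 0.0321), Mat2a (-0.101 to 0.0732), Aldh18a1 (-0.0504 to 0.0774) and Asns (-0.146 to 0.309). Gars was at -0.0047 on log2(TPM + 1) and -0.0048 on log2(TPM + 0.1).

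Counts are of amplified fragments, so their precision covers counting only. Mthfd1l, with 112 to 284 counts a library, had the fewest counts of the 8 enzymes and the widest standard error, 0.29. The part of depth in that error was not tested.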
